A study of Mus musculus with 8 samples.

Results

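Heat shock proteins and their J-domain and BAG cochaperones were compared between the denervated tibialis anterior, a mostly fast-fibre muscle of the lower leg, and the innervated muscle of the opposite leg. The set was taken by gene symbol, as every gene with a probe set annotated to it alone whose symbol begins with Hspa, Hspb, Hspd, Hspe or Hsph, with Dnaja, Dnajb or Dnajc and a number, or with Bag and a number. It held 62 of the 14860 genes measured, on 63 probe sets, and the brighter of 2 probe sets was used for Dnajc2. The 62 genes were 6 of the small heat shock protein family (Hspb), 11 of the HSP70 and HSP110 family (Hspa and Hsph1), 6 Bag genes, 4 Dnaja, 11 Dnajb and 23 Dnajc genes, and Hspbap1, which encodes a protein that binds HSPB1. No probe set annotated to Hspd1, Hspe1, Hspa8 or Hspb1 alone was analysed here. Most of these genes encode chaperones or cochaperones, but Hspb11 is named for sequence similarity and encodes a part of the intraflagellar transport machinery of cilia, and Bag6 encodes a factor that handles membrane proteins and misfolded proteins.

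The animals were male C57BL/6 mice aged 8 weeks whose left sciatic nerve was cut. The denervated group was 4 muscle samples taken 7 days after the cut, and the innervated group was 4 samples from the uninjured side of operated mice, so that both groups came from operated animals, and no sham operation was among the samples used here. Each sample was 1 array, with no word in the labels on whether muscles were pooled or how many mice were used. Pairs are arrays with the same replicate number, and the labels do not say that both came from 1 mouse. Values are log2 intensities as the authors deposited them, changes are given as denervated minus innervated, and a gene passed at a limma adjusted p under 0.05 over all 14860 genes, in a fit that kept the replicate number as a block.

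Heat shock proteins are molecular chaperones that bind unfolded or partly folded proteins. HSP70 proteins do so in a cycle driven by ATP: J-domain proteins deliver clients and start ATP hydrolysis, and nucleotide exchange factors, among them the BAG proteins and the HSP110 group, let the client go. Small heat shock proteins hold unfolding proteins without ATP, and in striated muscle several of them sit at the Z-disc and along actin and filamin, where load and oxidation unfold proteins. The stress-inducible members are switched on by heat shock factor 1 through heat shock elements, which are inverted repeats of the letters GAA, and chaperones of the endoplasmic reticulum are switched on through ER stress elements.

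Promoter windows of the genes on which the results turn are shown here so that these letters can be seen beside the values given further on. RefSeq windows on GRCm38.p6, from 250 bases before to 50 bases after an annotated start, were given for 50 of the 62 genes, in 66 windows. Hspb7 and Hspb8 are shown because they rose, Hspb6 because it fell, and Hsph1, Hspa1a and Hspa5 because they are classical stress-inducible genes whose changes did not pass. Each is written from 5′ to 3′ on the strand of the gene, with matches to GAANNTTC or TTCNNGAA, or in Hspa5 to the ER stress element (CCAAT and CCACG with any 9 bases between them), in capitals. N stands for any base.

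Hspb7, chr4:141420529-141420828, plus strand: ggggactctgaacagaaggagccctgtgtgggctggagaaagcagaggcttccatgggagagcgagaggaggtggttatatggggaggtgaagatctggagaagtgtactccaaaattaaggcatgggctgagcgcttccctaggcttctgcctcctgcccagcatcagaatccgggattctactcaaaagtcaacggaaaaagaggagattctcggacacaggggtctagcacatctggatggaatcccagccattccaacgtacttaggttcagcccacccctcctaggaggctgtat
Hspb8, chr5:116422815-116423114, minus strand: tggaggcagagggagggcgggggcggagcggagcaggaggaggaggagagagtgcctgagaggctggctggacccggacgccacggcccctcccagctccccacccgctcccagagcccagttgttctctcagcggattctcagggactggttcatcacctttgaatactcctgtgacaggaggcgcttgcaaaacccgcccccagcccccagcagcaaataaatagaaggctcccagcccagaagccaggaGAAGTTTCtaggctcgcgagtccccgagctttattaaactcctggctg
Hspb6, chr7:30553051-30553350, plus strand: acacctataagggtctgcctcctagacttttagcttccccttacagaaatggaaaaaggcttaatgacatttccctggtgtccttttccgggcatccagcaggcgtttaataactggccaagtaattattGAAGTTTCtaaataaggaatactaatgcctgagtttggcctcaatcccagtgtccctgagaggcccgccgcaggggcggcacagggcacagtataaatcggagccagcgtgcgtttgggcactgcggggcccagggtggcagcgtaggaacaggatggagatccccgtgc
Hsph1, chr5:149636266-149636565, minus strand: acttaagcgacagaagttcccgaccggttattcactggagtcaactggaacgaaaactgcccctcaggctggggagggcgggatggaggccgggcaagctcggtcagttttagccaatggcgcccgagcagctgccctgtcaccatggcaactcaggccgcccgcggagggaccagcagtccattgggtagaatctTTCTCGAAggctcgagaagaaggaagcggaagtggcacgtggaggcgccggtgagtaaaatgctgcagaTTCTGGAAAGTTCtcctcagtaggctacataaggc
Hspa1a, chr17:34972107-34972406, minus strand: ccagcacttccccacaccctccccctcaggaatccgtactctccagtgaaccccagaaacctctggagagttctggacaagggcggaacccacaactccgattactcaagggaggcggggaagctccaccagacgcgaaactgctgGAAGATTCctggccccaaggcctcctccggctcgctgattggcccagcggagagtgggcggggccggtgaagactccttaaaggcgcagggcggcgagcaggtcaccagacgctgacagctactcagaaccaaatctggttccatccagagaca
Hspa5, chr2:34771840-34772139, plus strand: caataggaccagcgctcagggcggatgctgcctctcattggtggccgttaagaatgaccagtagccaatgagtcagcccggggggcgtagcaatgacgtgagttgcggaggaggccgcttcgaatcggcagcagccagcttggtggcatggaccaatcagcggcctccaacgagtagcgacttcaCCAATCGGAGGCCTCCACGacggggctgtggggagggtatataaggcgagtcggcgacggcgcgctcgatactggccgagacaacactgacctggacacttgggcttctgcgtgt

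The Hspb7 window holds no match. The match in Hspb8 begins 2 bases after the annotated start, and that in Hspb6 begins at position -120 from it, in 1 of the 2 Hspb6 windows. The Hsph1 window shown also holds a longer match of 3 units, TTC, GAA and TTC with any 2 bases between neighbours, which begins 15 bases after the start and contains 2 overlapping shorter matches. Matches to the shorter form, whose 2 spellings are each their own reverse complement, were found in 12 of the 50 genes (24.0%), against 17.0% of 27025 genes with such windows. The form of 3 units, searched on both strands, was found in 1 of the 50 genes and in 0.662% of all genes. The ER stress element, searched on both strands, was found in Hspa5 alone among the 50 genes and in 0.137% of all genes. Of the 9 genes that passed and had a window, Hspb6, Hspb8 and Dnajc27 had a match to the shorter form, and Dnajc2 and Hspb2 were not searched. A match describes the letters in these windows and nothing else.

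Of the 62 genes 11 differed between denervated and innervated muscle, 6 of them higher and 5 lower in the denervated muscle. Those that rose were Hspb7, Hspb8, Dnajc2, Dnajc1, Hspa4 and Dnajb12, and those that fell were Hspb6, Dnajb5, Dnajc15, Hspb2 and Dnajc27. That is 17.7% of the set, against 8.45% of all 14860 genes, of which 3.56% rose and 4.89% fell. The set's median change was -0.005, with medians of 0.05, 0.06, -0.05 and 0.05 in pairs 1 to 4, and the median over all genes was -0.006. The groups did not overlap in 9 of the 62 genes, a share close to the 12.7% found over all genes. The 9 were Dnajc16, which did not pass, and 8 of the 11. The members were brighter than genes at large, with 7 of the 62 among the dimmest 25% of all genes. With the dimmest 50% of genes left out, 15 of 49 members passed (30.6%), against 22.6% of all genes. The 62 changes ran from -1.15 to 1.14, and Hspb7, Hspb8, Dnajb5 and Dnajc2 passed under each of the 13 alternative settings tried.

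**Figure D1:**
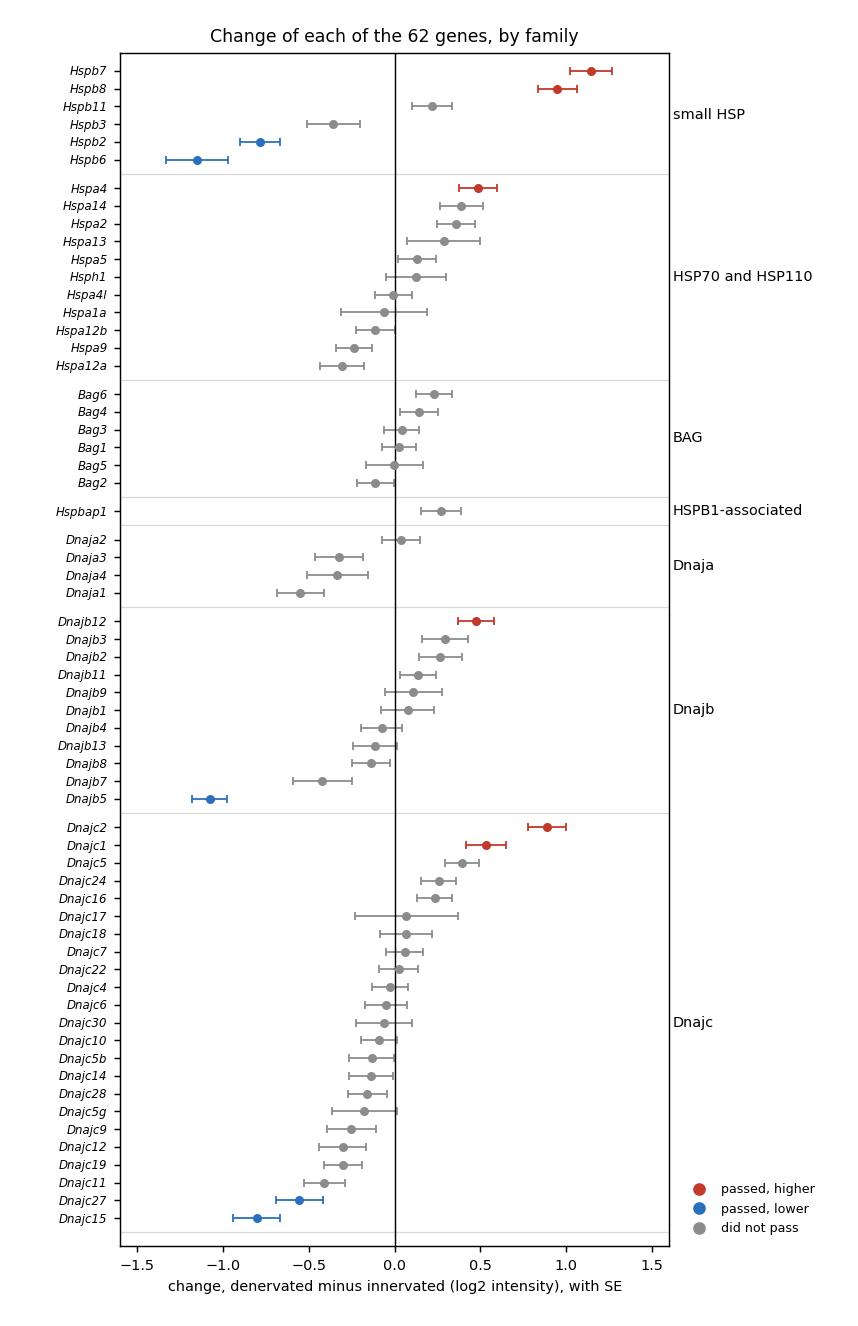
Change of each of the 62 genes between denervated and innervated muscle (log2 intensity, horizontal axis), grouped by family from top to bottom. Bars give the SE from limma over 4 pairs of same-numbered arrays. Red and blue points passed at an adjusted p under 0.05 as higher or lower in denervated muscle and grey points did not; both ends of the scale, 1.14 for Hspb7 and -1.15 for Hspb6, are small heat shock protein genes.

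**Figure D2:**
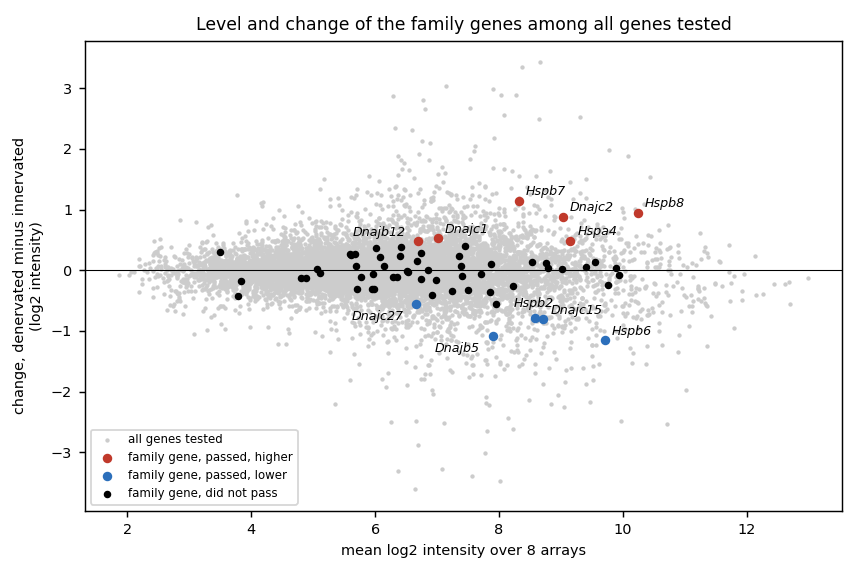
Mean log2 intensity over the 8 arrays (horizontal axis) against the change, denervated minus innervated (vertical axis), for all 14860 genes in grey and the 62 chaperone and cochaperone genes in colour or black. The 11 genes that passed are labelled and lie between -1.15 and 1.14, within the spread of the other genes.

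The arrays had medians of 5.84 to 6.00, and the arrays of replicate 3 stood apart in both groups, where the values of all probe sets had SDs of 1.25 (denervated) and 1.36 (innervated), against 1.45 to 1.56 on the other 6 arrays. Without replicate 3, 11 members again passed (17.7%), against 11.1% of all genes. Of these members 10 were among the 11 above, with Dnajc27 lost and Hspa13 gained. Fibre markers, which check the tissue, were bright, with list means of 11.13 to 11.58 in denervated and 11.61 to 11.83 in innervated muscle for 9 of 10 genes measured, of which Ckm and Casq1 fell. Among markers of other cells, 4 of 11 leukocyte genes rose (Cd68, Tyrobp, Fcer1g and Laptm5), with list means of 6.51, 6.18, 7.58 and 6.33 in denervated muscles 1 to 4, against 5.72 to 6.07 in innervated muscles. The highest, that of denervated replicate 3, stood well above the other denervated arrays, and on it Ptprc read 9.34 against 5.97 to 6.10, Cd52 8.95 against 4.43 to 5.06 and Cd3e 7.50 against 5.56 to 5.94 on the other denervated arrays. The other 3 denervated list means also lay above every innervated one. Of 8 endothelial genes 2 fell (Kdr and Flt1), and all 8 had changes below 0, with a median of -0.38. Of 7 fibroblast genes 2 rose (Lum and Postn), while 4 had changes below 0. No gene passed of 4 Schwann cell, 6 smooth muscle and pericyte, 6 adipocyte and 5 satellite cell markers. All 6 adipocyte changes and 5 of the 6 smooth muscle and pericyte changes were below 0. Summed over the list, the log2 levels of the 11 leukocyte genes were 83.4 in denervated replicate 3 and 68.0 to 71.6 in the other denervated muscles, against 63.0 to 66.7 in innervated muscles, and their part in the results was not tested. In a whole muscle, fewer cells of a type and less RNA per cell cannot be told apart.

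The 6 genes with Hspb symbols moved in opposite directions, with 2 higher, 2 lower and a median of -0.07. The 4 that passed are 66.7% of them, against 8.45% of all genes. The 6 include Hspb11 by its symbol only, and its change of 0.22 enters this median. Hspb7, which encodes a chaperone of striated muscle that binds filamin C and actin, had log2 intensities of 8.87, 9.17, 8.46 and 9.07 in denervated muscles 1 to 4, against 7.97, 7.96, 7.02 and 8.04 in innervated muscles. Every denervated value lay above every innervated value, and the array of replicate 3 was the lowest of each group. The gene rose by 1.14 (SE 0.12), or 2.21-fold (limma adjusted p = 0.00203), with means of 8.89 ± 0.32 in denervated and 7.75 ± 0.48 in innervated muscle (SD, n = 4).

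Hspb8 encodes a small heat shock protein that works with BAG3 and HSP70 to route damaged sarcomere proteins such as filamin to autophagy. It read 10.71, 11.06, 10.14 and 10.94 in denervated muscles, against 9.79, 9.96, 9.46 and 9.85 in innervated muscles. The groups did not overlap and all 4 pairs rose. The rise was 0.95 (SE 0.12), or 1.93-fold (limma adjusted p = 0.00358), with means of 10.71 ± 0.41 in denervated and 9.76 ± 0.21 in innervated muscle. For its partner Bag3, which is named here after its values were seen, the readings were 8.87, 8.92, 8.39 and 9.07 in denervated muscles and 8.79, 8.84, 8.51 and 8.95 in innervated muscles. These overlap, and the change of 0.04 (95% interval -0.20 to 0.28) did not pass (adjusted p = 0.89).

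Hspb6 encodes HSP20, a small heat shock protein of muscle that is phosphorylated by cyclic nucleotide-dependent kinases. It read 9.003, 9.71, 8.02 and 9.77 in denervated muscles, against 10.48, 10.27, 9.62 and 10.74 in innervated muscles. The innervated array of replicate 3 lay below 2 of the denervated arrays, so that the groups overlapped, although each pair fell. The gene fell by 1.15 (SE 0.18), or 2.22-fold (limma adjusted p = 0.00948). Hspb2, whose product was first found as a binding partner of the myotonic dystrophy kinase, read 8.59, 8.45, 7.27 and 8.45 in denervated muscles, against 9.30, 9.02, 8.30 and 9.27 in innervated muscles. Here too the arrays of replicate 3 were the lowest of each group, the groups overlapped and all 4 pairs fell, by 0.78 on average (SE 0.12, 1.72-fold, limma adjusted p = 0.00736). Neither fall passed without the replicate block (adjusted p = 0.125 for Hspb6 and 0.221 for Hspb2) or without replicate 1 (0.0718 and 0.0534).

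The other 2 genes with Hspb symbols did not pass. Hspb3, whose product forms a complex with that of Hspb2, averaged 7.68 ± 0.35 in denervated and 8.03 ± 0.16 in innervated muscle, a change of -0.36 (adjusted p = 0.229), and Hspb11 averaged 6.19 ± 0.12 in denervated and 5.97 ± 0.24 in innervated muscle, a change of 0.22 (adjusted p = 0.34). Cryab, the gene of alpha-B crystallin, which is a small heat shock protein under another name and not one of the 62 genes, read 9.98, 10.13, 9.56 and 10.19 in denervated muscles, against 10.40, 10.31, 10.28 and 10.12 in innervated muscles. Its change of -0.31 (SE 0.14) did not pass (adjusted p = 0.26). Hspbap1 read 5.62 to 5.92 in denervated and 5.22 to 5.63 in innervated muscle, which overlapped, and changed by 0.27 (SE 0.12, adjusted p = 0.234).

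**Figure D3:**
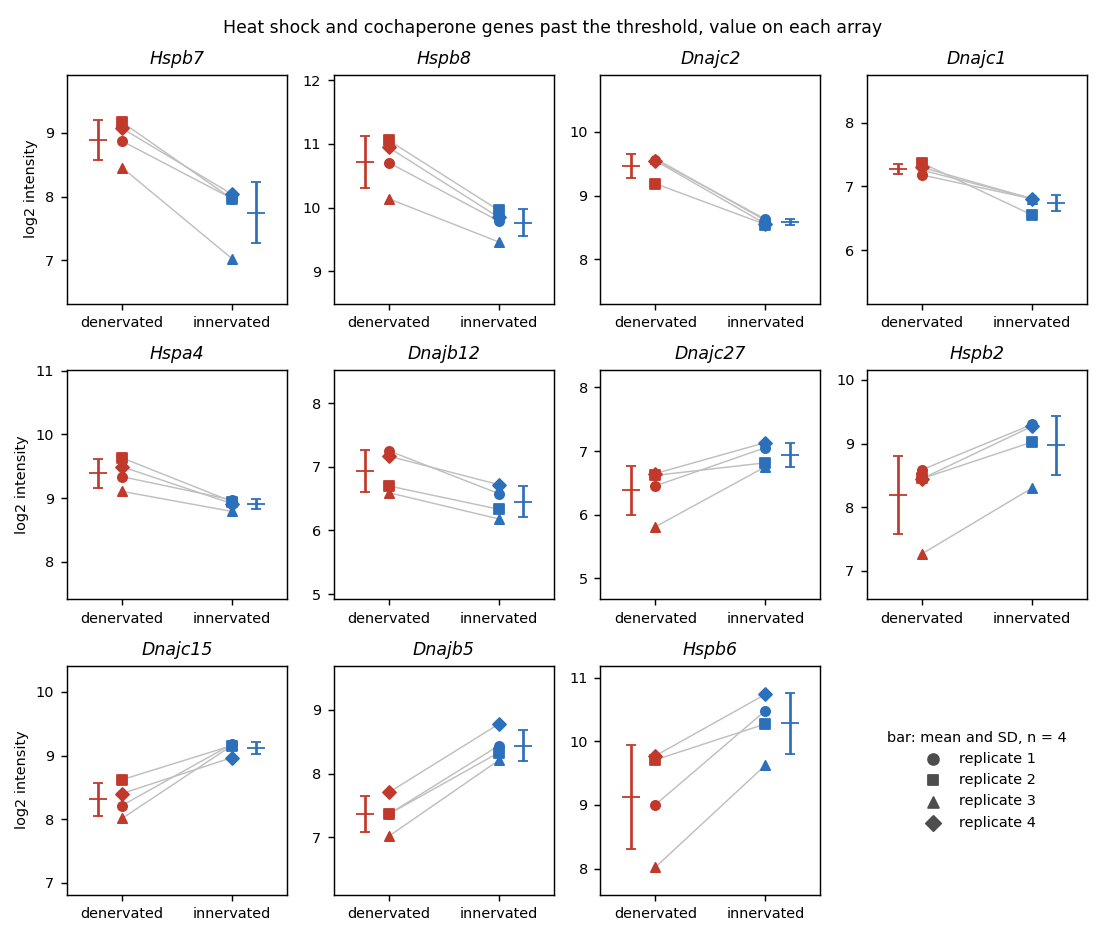
Log2 intensity on each array (vertical axis, with the same span in every panel) of the 11 genes that passed, with denervated muscles in red at left and innervated muscles in blue at right. Marker shapes give the replicate number, grey lines join arrays of the same number, and bars beside the points give the mean and SD of 4 arrays; in each panel all 4 lines slope the same way.

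Of the 11 HSP70 and HSP110 genes only Hspa4 passed, as a rise (9.09%, against 8.45% of all genes), and the median change was 0.12. Hspa4 encodes an HSP110-type nucleotide exchange factor for HSP70. Its log2 intensities were 9.34, 9.63, 9.11 and 9.49 in denervated muscles, against 8.97, 8.95, 8.79 and 8.91 in innervated muscles, which did not overlap. The rise of 0.49 (SE 0.11, 1.40-fold, limma adjusted p = 0.0387) was lost without the replicate block (adjusted p = 0.0655), once the arrays were centred on their medians (0.0617) and without replicate 1, 2 or 4 (0.124, 0.144 and 0.186). Next in size were Hspa14, an HSP70-like partner of DNAJC2 at the ribosome, at 0.39 (SE 0.13, adjusted p = 0.116), and Hspa2, best known from the testis, at 0.36 (SE 0.11, adjusted p = 0.0979). Hspa14 averaged 6.61 ± 0.12 in denervated and 6.22 ± 0.20 in innervated muscle, and Hspa2 averaged 6.20 ± 0.11 in denervated and 5.84 ± 0.21 in innervated muscle. Hspa2 passed with array weights (adjusted p = 0.0441) and with the dimmest 50% of genes left out (0.0456).

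The heat-inducible HSP70 gene Hspa1a had the widest scatter of the family, with readings of 5.95, 6.89, 5.42 and 5.45 in denervated muscles and 6.36, 6.19, 5.06 and 6.35 in innervated muscles. The groups overlapped, and 2 pairs were higher while 2 were lower. Its change of -0.06 had a 95% interval from -0.64 to 0.52 (adjusted p = 0.934), which leaves room for a change of about the size of that of Hspa4 in either direction. A near-identical neighbour, Hspa1b, could share hybridization with these probes, so the reading is uncertain as to gene. Hsph1 and Dnajb1, also of the classical heat shock response, did not pass either. Hsph1, the inducible HSP110, changed by 0.12 (95% interval -0.28 to 0.53), with denervated readings of 8.18 to 9.31 around innervated ones of 8.59 to 8.85. Dnajb1, the inducible HSP40, changed by 0.08 (95% interval -0.28 to 0.44). These genes, Hspa5 and Hspa13 were singled out after their values were seen.

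Hspa9, which encodes the mitochondrial HSP70 mortalin, read 9.59, 9.79, 9.40 and 9.81 in denervated muscles, against 9.85, 9.94, 9.79 and 9.95 in innervated muscles. All 4 pairs were lower by 0.15 to 0.40, but the change of -0.24 (SE 0.10) did not pass (adjusted p = 0.243). Hspa5, the endoplasmic reticulum HSP70 known as BiP, read 9.58, 9.75, 9.52 and 9.62 in denervated muscles, against 9.68, 9.43, 9.43 and 9.41 in innervated muscles. The innervated array of replicate 1 lay above 3 of the denervated arrays, and the change was 0.13 (95% interval -0.13 to 0.39, adjusted p = 0.608). Hspa13 changed by 0.29 (SE 0.21) and, among the 13 alternatives, passed only without replicate 3. The remaining Hspa genes, Hspa4l, Hspa12a and Hspa12b, changed by -0.01, -0.31 and -0.11, none of which passed.

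None of the 6 Bag genes passed, and their changes ran from -0.11 to 0.23 with a median of 0.03. Bag1, a nucleotide exchange factor that links HSP70 to the proteasome, read 8.98, 9.04, 8.98 and 9.09 in denervated muscles, against 8.97, 8.98, 9.02 and 9.03 in innervated muscles. Its groups overlapped closely, and its change was 0.02 (95% interval -0.21 to 0.25). Bag6 changed by 0.23 (SE 0.11, adjusted p = 0.27) and Bag4, known as a silencer of death domains, by 0.14 (SE 0.11, adjusted p = 0.543). Bag2 changed by -0.11 and Bag5 by -0.0027.

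Of the 38 J-domain genes 3 rose and 3 fell (15.8%, against 8.45% of all genes), with a median change of -0.07. The largest rise was that of Dnajc2, whose product joins HSPA14 in the ribosome-associated complex that meets nascent chains, and which also acts in the nucleus. It read 9.56, 9.19, 9.58 and 9.54 in denervated muscles, against 8.63, 8.54, 8.61 and 8.55 in innervated muscles. The groups did not overlap, and the lowest denervated value, that of replicate 2, lay above all innervated values. The rise was 0.89 (SE 0.11), or 1.85-fold (limma adjusted p = 0.0039). A second, dim probe set of the gene, with a mean of 3.27, changed by 0.02, and the mean of both rose by 0.45 (limma adjusted p = 0.0336).

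Dnajc1 encodes a J-domain protein of the endoplasmic reticulum membrane that binds BiP. Its readings were 7.18, 7.37, 7.26 and 7.30 in denervated muscles, against 6.80, 6.55, 6.81 and 6.81 in innervated muscles. The groups did not overlap, and the gene rose by 0.53 (SE 0.12, 1.45-fold, limma adjusted p = 0.0307). Dnajb12, another membrane J-domain protein of the endoplasmic reticulum, which acts in the removal of misfolded membrane proteins, read 7.25, 6.70, 6.59 and 7.17 in denervated muscles, against 6.58, 6.33, 6.18 and 6.72 in innervated muscles. The groups overlapped while each pair rose, by 0.47 on average (SE 0.11, 1.39-fold, limma adjusted p = 0.0351). Neither passed without replicate 1, 2 or 4 (adjusted p of 0.099, 0.115 and 0.126 for Dnajc1 and 0.173, 0.0898 and 0.151 for Dnajb12), nor did Dnajb12 without the replicate block (0.206).

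The largest fall among J-domain genes was that of Dnajb5, which encodes an HSP40 that has been tied in heart muscle to the redox control of the histone deacetylase HDAC4. It read 7.36, 7.36, 7.02 and 7.70 in denervated muscles, against 8.44, 8.33, 8.21 and 8.78 in innervated muscles. The groups did not overlap, and the pairs fell by 0.97 to 1.19. The mean fall was 1.08 (SE 0.10), or 2.11-fold (limma adjusted p = 0.00132), the smallest adjusted p among the 62 genes.

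Dnajc15 encodes a J-domain protein of the mitochondrial inner membrane that restrains respiratory complex I. Its log2 intensities were 8.22, 8.62, 8.01 and 8.40 in denervated muscles, against 9.18, 9.16, 9.16 and 8.97 in innervated muscles, with no overlap. It fell by 0.80 (SE 0.14), or 1.75-fold (limma adjusted p = 0.0126), and missed the threshold without replicate 1 (0.0859). Dnajc27, which encodes a Rab-like GTPase with a J domain, read 6.46, 6.62, 5.81 and 6.65 in denervated muscles, against 7.05, 6.82, 6.76 and 7.13 in innervated muscles. Its groups did not overlap, but the fall of 0.56 (SE 0.14, 1.47-fold) lay at the threshold (limma adjusted p = 0.0494). It was not called without the replicate block (0.147), after quantile normalization or median centring (0.0705 and 0.0824), or without any 1 of the 4 replicates (0.0547 to 0.195).

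Several J-domain genes lay near the threshold on its other side. Dnaja1, a cytosolic partner of HSP70 in protein folding and import, averaged 7.68 ± 0.14 in denervated and 8.23 ± 0.36 in innervated muscle, a change of -0.55 (SE 0.14, adjusted p = 0.0507). Dnajc5, the cysteine string protein of secretory vesicles, averaged 7.64 ± 0.21 in denervated and 7.25 ± 0.20 in innervated muscle, a change of 0.39 (SE 0.10, adjusted p = 0.051). Both passed after cyclic loess normalization (0.0486 for Dnaja1 and 0.0409 for Dnajc5), with array weights (0.0192 and 0.0194) and with the dimmest 25% of genes left out (0.0277 and 0.0306). Dnajc11, a mitochondrial protein that associates with the cristae-organizing complex, changed by -0.41 (SE 0.12, adjusted p = 0.0895) and passed with array weights (0.0362) and with the dimmest 50% of genes left out (0.0393). Dnaja4 changed by -0.33 (SE 0.18, adjusted p = 0.347).

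The brightest probe sets of the 3 J-domain classes showed no call. Dnaja2 read 10.01, 9.97, 9.74 and 9.93 in denervated muscles and 9.90, 9.78, 9.96 and 9.86 in innervated muscles, a change of 0.04 (SE 0.11). Dnajb4 read 9.68, 10.19, 9.94 and 9.80 in denervated muscles and 10.0035, 10.04, 9.88 and 9.99 in innervated muscles, a change of -0.08 (SE 0.12). Dnajc7, which carries clients between HSP70 and HSP90, read 9.41, 9.39, 9.29 and 9.65 in denervated muscles and 9.33, 9.24, 9.46 and 9.48 in innervated muscles, a change of 0.06 (SE 0.11). In all 3 the groups overlapped. Dnajb3 averaged 3.65 ± 0.32 in denervated and 3.36 ± 0.45 in innervated muscle, and Dnajb7 averaged 3.58 ± 0.26 in denervated and 4.00 ± 0.28 in innervated muscle. Both lay among the dimmest 25% of genes, neither passed (adjusted p of 0.262 and 0.211), and no detection values were used to tell these levels from background. The changes of the other J-domain genes ran from -0.33 for Dnaja3 to 0.27 for Dnajb2, and none passed.

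By compartment, all 8 measured genes of the mitochondrial list, namely Hspa9, Dnaja3, Dnajc4, Dnajc11, Dnajc15, Dnajc19, Dnajc28 and Dnajc30, had changes below 0, with a median of -0.27, though only Dnajc15 passed. The pair medians were -0.17, -0.13, -0.50 and -0.37. Over all genes 7599 of 14860 had changes below 0. The list holds members only, and other mitochondrial chaperone and protease genes, singled out after their values were seen, went both ways. Grpel1, Grpel2, Hscb and Clpb changed by 0.19, 0.03, 0.04 and 0.09. Trap1, Clpp, Clpx and Lonp1 changed by -0.08, -0.01, -0.23 and -0.07, and none of these genes passed. Of the 7 measured genes of the endoplasmic reticulum list 6 had changes above 0, with a median of 0.14, and Dnajc1 passed. Among all 14860 genes 7259 had changes above 0. Dnajb12 and Dnajc14, also of the endoplasmic reticulum membrane, changed by 0.47 and -0.14 and were not on that list. Dnajb11 and Dnajb9, both BiP partners in the lumen, changed by 0.14 and 0.11 (adjusted p of 0.541 and 0.803).

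Among other genes of the chaperone network, taken from 4 lists, 3 of 49 measured rose and 2 fell, against 3.56% and 4.89% of all genes. Sec63, a J-domain protein of the translocon whose symbol lies outside the set, read 8.31, 8.43, 8.00 and 8.62 in denervated muscles, against 7.86, 7.74, 7.48 and 7.78 in innervated muscles, without overlap. It rose by 0.63 (SE 0.11, limma adjusted p = 0.0155), the lectin chaperone calnexin (Canx) by 0.51 (SE 0.12, adjusted p = 0.0364) and the protein disulfide isomerase gene P4hb by 0.53 (SE 0.13, adjusted p = 0.0484). None of the 3 passed without replicate 1, 2 or 4 (adjusted p of 0.067 to 0.209), Canx and P4hb did not after median centring (0.0517 and 0.0626), nor did P4hb without the replicate block (0.283).

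Of 20 measured genes of the HSP90 system 2 fell and none rose, a share of 10% that is close to the 8.45% of all genes. Smyd1, a muscle methyltransferase that works with HSP90 and UNC45B in myosin assembly, read 7.09, 7.55, 6.77 and 7.28 in denervated muscles, against 8.42, 8.56, 8.22 and 8.66 in innervated muscles. The groups did not overlap, and it fell by 1.29 (SE 0.12), or 2.45-fold (limma adjusted p = 0.00112). Fkbp5, a glucocorticoid-inducible HSP90 cochaperone, fell by 0.63 (SE 0.11, adjusted p = 0.0137), with means of 6.05 ± 0.10 in denervated and 6.68 ± 0.18 in innervated muscle, and did not pass without replicate 1 or 2 (0.0899 and 0.0617). Hsp90aa1 read 3.00 to 3.15 in denervated and 2.97 to 3.95 in innervated muscle, a change of -0.24 (limma adjusted p = 0.557). These readings are dimmer than the lower quartiles of the arrays (4.98 to 5.36). The mean of this probe set stood at percentile 1.3 of all genes, and no detection values were used to tell it from background. Of the heat shock factor list Hsf2, Hsf4 and Hsbp1 were measured, with changes of 0.40, 0.10 and 0.06, and none passed; Hsf1 and Hsp90ab1 are not analysed here.

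**Figure D4:**
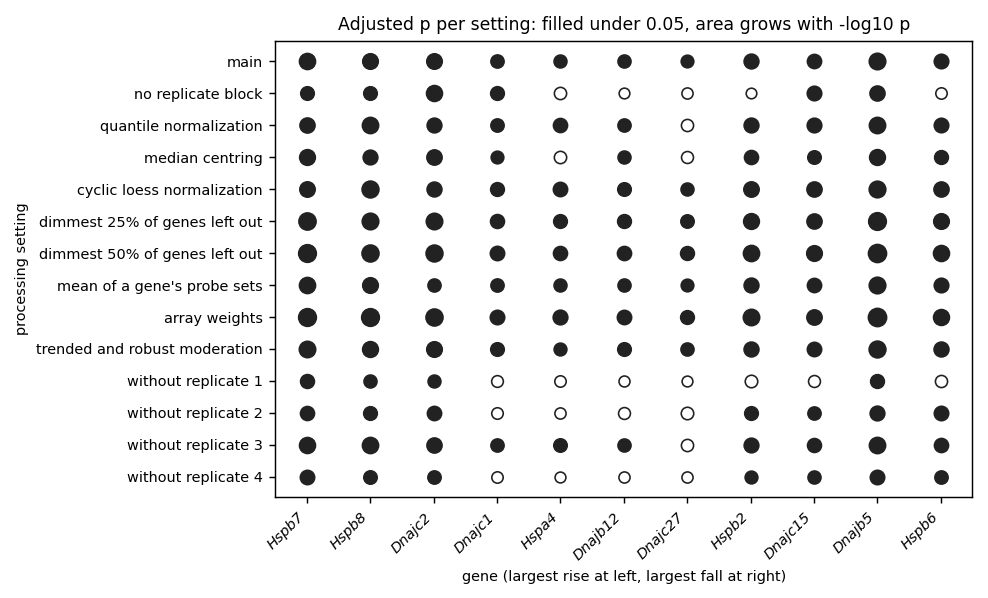
Calls of the 11 genes (columns, from the largest rise at left to the largest fall at right) under the main setting and 13 alternatives (rows). Filled circles have a limma adjusted p under 0.05, open circles do not, and the area grows with the negative log10 of the adjusted p; Hspb7, Hspb8, Dnajc2 and Dnajb5 are filled in every row.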

How the data were processed

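RNA of 8 tibialis anterior samples, 4 denervated and 4 innervated, was amplified, labelled with biotin and hybridised, 1 array per sample. The deposited values are log2 intensities per probe set as the authors normalized them; the tools and build named, per the submitters' processing notes, are GCOS, RMA and mm9, with no versions. Values spanned 1.67 to 13.1. Of 16755 probe sets 14996 had 1 gene symbol in the platform annotation, 1019 several and 740 none, and the brightest per gene left 14860 genes. The symbols of all 62 members matched RefSeq by Entrez Gene ID.

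Each gene was fitted with limma 3.58.1 in R 4.3.3 (lmFit and eBayes, two-sided) on group and replicate number, with 3 residual and 4.57 prior degrees of freedom and Benjamini-Hochberg adjustment over all genes. Replicate number is a block since the series' design refers denervated muscle to the contralateral leg, but whether legs with equal numbers belonged to 1 mouse is not stated. Nor is it stated that a group's muscles are of different mice: p-values then measure only how these samples vary, which may be technical. The fit was also run on simulated data without replicate effects and with equal noise on every array. That run does not check the block or the arrays of replicate 3. The 13 alternatives were no block, 3 normalizations, 2 filters on dim genes, averaged probe sets, array weights, trended and robust moderation, and each replicate number left out. Members named are those that passed, the brightest of each family and the 2 largest changes per family that did not pass; Bag3, Dnajb1, Hspa5 and the rest were singled out after their values were seen. The members and lists were chosen with earlier results of these data known. No set test was run. The number of arrays limits the precision.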

Additional observations from a re-analysis of the deposited data

Results flagged for a closer look

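In 8 of 58 groups of 4 arrays, 1 value stood apart from the other 3 by Dixon's criterion, the gap to its neighbour over the whole range. Chance flags about 1 in 20 such groups of normal values. All the groups came from the same 8 arrays, so their flags are not independent and the count is no test. The groups were the denervated and the innervated arrays of 29 genes. Replicate 3, whose arrays had the smallest spread of all, gave 4 of the 8. In denervated replicate 3, Bag4 read 6.25 against 6.84 to 6.94 on the other denervated arrays, Dnajc11 read 6.27 against 6.83 to 6.90, and Hspb2 read 7.27 against 8.45 to 8.59. In innervated replicate 3, Hspb7 read 7.02 against 7.96 to 8.04. Denervated replicate 2 read 9.19 for Dnajc2, against 9.54 to 9.58. Innervated replicate 2 read 6.55 for Dnajc1, against 6.80 to 6.81. Innervated replicate 4 read 8.97 for Dnajc15, against 9.16 to 9.18. Denervated replicate 4 read 6.00 for Hspb11, against 6.24 to 6.25.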

How the results depend on the processing

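Hspb7, Hspb8, Dnajc2 and Dnajb5 kept their call and direction under all 13 alternatives, with changes of 1.05 to 1.22, 0.90 to 1.08, 0.45 to 0.97 and -1.11 to -1.04, and no gene that passed as given in the report took the opposite sign under any of them. Same-numbered arrays correlated at 0.23, -0.03, 0.45 and 0.35 across genes after subtraction of the group means. Number 2 shows no sign of pairing, and innervated array 1 correlated best with denervated array 4. The highest value was that of number 3, whose arrays had the smallest spread. Whether equal numbers mark 1 mouse cannot be told from these values. Without the replicate block 800 genes passed instead of 1255, and 6 members, 4 higher and 2 lower, all among the 11. With array weights 2200 genes passed, and 8 members rose against 6 in the report and 8 fell against 5. That is 25.8% of the members, against 14.8% of all genes. Leaving out 1 replicate gave 347 to 1643 genes, 3 to 7 members higher and 1 to 4 lower. Of the other chaperone genes, 3 higher and 2 lower in the report, 5 rose after quantile normalization, 1 after median centring, 7 after cyclic loess and 8 with array weights, 4 fell with the dimmest 50% of genes left out, and leaving out 1 replicate gave 0 to 5 higher and 1 to 3 lower. The median change of the members stayed between -0.005 and 0.02. With 4 arrays per group and no detection values, changes of dim genes are the least certain.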

Other observations

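A further 5 probe sets are annotated to several genes, among them a gene of these families, and belong in no comparison above. The probe set of Dnajc8 and Ptafr averaged 9.14 ± 0.14 in denervated and 8.56 ± 0.31 in innervated muscle, without overlap, and its change of 0.58 (SE 0.15) had a limma adjusted p = 0.06 over all probe sets. That of Dnajc3 and Ccdc58 averaged 8.81 ± 0.03 in denervated and 8.54 ± 0.20 in innervated muscle, also without overlap (adjusted p = 0.258). That of Hspa1l and Hspa1a averaged 6.89 ± 0.60 in denervated and 7.12 ± 0.24 in innervated muscle, a change of -0.23 (SE 0.19, adjusted p = 0.595), and like the Hspa1a probe set it did not pass. The probe sets of Gng10 with Dnajc25 and of Qrfprl with Dnajc2 changed by 0.12 and 0.17 (adjusted p of 0.717 and 0.649). Which gene of each pair the signal comes from cannot be told apart.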
